A study of Mus musculus with 4 samples.

Results

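The genes described are 10 transcripts that thymocytes induce, some fast and some later, after T cell receptor (TCR) stimulation: Cd69, Cd5, Egr1, Egr2, Egr3, Nr4a1, Nr4a3, Fos, Junb and Itm2a. They were chosen by name, with no threshold on a value but with earlier results of these data known, and are 10 of 31053 genes in each count matrix. The matrices came from droplet (10x) single-cell RNA sequencing of viable thymus cells from 4 FVB/N mice, 1 library a mouse. They were a wild type (WT) thymus at 6 weeks, a preleukemic thymus carrying Tal1 and Lmo2 transgenes at 6 weeks, and the leukemic thymi T-ALL#1 and T-ALL#2 of Tal1/Lmo2 mice at 3 months. The transgenes are driven by the proximal Lck promoter, so all 3 transgenic thymi express them in thymocytes, and leukemic state and age cannot be told apart. WT and preleukemic are 1 animal each, and differences between libraries are given with counting intervals and were not tested. Levels are UMIs (counts of unique transcript molecules) scaled to a total of 1e6 per library (CPM), with exact Poisson 95% intervals, which cover counting error only. After the filters, 4220 WT, 5576 preleukemic, 5773 T-ALL#1 and 1975 T-ALL#2 cells remained, with median depths of 3800.5, 4888, 8742 and 17581 UMIs and totals of 24042062 to 70745712 UMIs a library.

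When a peptide bound to MHC engages the TCR, kinases downstream of Lck raise calcium and activate ERK, and within minutes the cell transcribes immediate early genes that need no new protein. Among these are the zinc finger factors Egr1, Egr2 and Egr3, the nuclear receptors Nr4a1 and Nr4a3, and the AP-1 subunits Fos and Junb. The surface proteins CD69, which holds thymocytes in the thymus by blocking S1PR1, and CD5, an inhibitor of TCR signalling, are read as marks of recent signalling and of its strength, and Itm2a is a membrane protein induced during positive selection. Fos and Junb answer many other stimuli as well, including the handling of tissue.

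Promoters are shown for 2 genes whose level was past 2-fold lower in all 3 transgenic libraries than in WT (Nr4a3 and Nr4a1) and for the 2 whose level was not (Fos and Junb). RefSeq (GRCm38.p6) start sites were given for 7 of the 10 genes (Nr4a3, Junb, Egr2, Fos, Nr4a1, Cd5 and Itm2a), and the 250 bases before each start were searched on both strands. Each sequence is written 5′ to 3′ on the gene's strand, with capitals marking the cAMP response core TGACG (or CGTCA) and the E-box CAGCTG. All stretches printed lie outside exons of GENCODE M21, in the sequence just before an annotated transcript start. For Nr4a1 that stretch is in an intron of longer transcripts. The positions are chr4:48045055-48045152 (plus strand, 98 bases, cut where a longer annotated exon begins), chr15:101266596-101266845 (plus strand, 250 bases), chr12:85473640-85473889 (plus strand, 250 bases) and chr8:84978749-84978998 (minus strand, 250 bases).
Nr4a3: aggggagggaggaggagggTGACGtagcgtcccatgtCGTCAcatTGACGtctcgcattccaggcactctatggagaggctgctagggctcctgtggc
Nr4a1: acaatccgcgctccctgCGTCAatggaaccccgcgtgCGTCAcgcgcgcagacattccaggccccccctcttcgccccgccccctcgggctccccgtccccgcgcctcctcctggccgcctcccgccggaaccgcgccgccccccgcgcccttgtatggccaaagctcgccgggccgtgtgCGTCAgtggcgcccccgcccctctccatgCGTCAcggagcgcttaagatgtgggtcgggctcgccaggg
Fos: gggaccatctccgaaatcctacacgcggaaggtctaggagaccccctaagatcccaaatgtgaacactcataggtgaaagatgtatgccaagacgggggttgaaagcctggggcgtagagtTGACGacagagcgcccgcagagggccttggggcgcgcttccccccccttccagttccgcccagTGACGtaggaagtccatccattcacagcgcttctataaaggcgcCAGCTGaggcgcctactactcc
Junb: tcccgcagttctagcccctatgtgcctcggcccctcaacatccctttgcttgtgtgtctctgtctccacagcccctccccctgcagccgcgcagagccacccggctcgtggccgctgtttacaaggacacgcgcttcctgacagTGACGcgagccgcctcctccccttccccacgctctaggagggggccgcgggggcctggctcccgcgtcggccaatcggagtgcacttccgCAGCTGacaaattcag
The core was found 3 times in the Nr4a3 stretch, 4 times in that of Nr4a1, 2 times in that of Fos and 1 time in that of Junb. Of the 7 genes, 6 had at least 1 match before any of their starts (all but Cd5), as did 19.8% of 27025 genes in the table. Counted by start, 8 of the 11 promoters of the 7 genes had a match (Egr2 has 5 of them), as did 17.8% of 32851 promoters of the same length. The Egr2 promoters with a match overlap one another, so the count by start holds the same stretch more than 1 time. The E-box CAGCTG was found before Fos and Junb, 2 of the 7 genes, and before 14.7% of all genes. A CArG box lay before 1 of the 7 genes (Egr2), as before 1.62% of all genes, the EGR motif GCGNGGGCG before 1 (Nr4a1), as before 5.33%, and the AP-1 motif TGANTCA before none, as against 7.82%.

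The libraries were checked against their labels first. Tal1, at 0 UMIs in WT, was read at 409.6 CPM in the preleukemic library, 68.3 for T-ALL#1 and 234 for T-ALL#2. The WT and preleukemic libraries are labelled male, yet both held Xist (1380.2 and 1869 CPM) and only 1 and 5 UMIs of 4 Y-linked genes, so the sex of 2 of the 4 libraries went against the label. They are called the WT and preleukemic libraries on the strength of Tal1. T-ALL#1 held 1 UMI of the Y-linked genes and Xist at 1932 CPM, and T-ALL#2 4413 UMIs and 0.0828 CPM, so the leukemias differed in sex. Thymocyte markers were all present (8 of 8 in each library, 2657 to 4859 CPM in sum). Pairs of libraries shared 0 to 9 cell barcodes, at most 0.253% of either. Cells with defining markers of B, myeloid or erythroid cells (at least 3 UMIs) numbered 44, 31, 17 and 11, and leaving them out changed none of the counts of the 10 genes given below. They held 12.3% of the Fos UMIs of WT and 22.5% of the 40 Egr3 UMIs of the preleukemic library. In the 44 WT cells a Cd5 UMI was read in 18.2% (95% interval 8.19 to 32.7, exact binomial; median depth 6665 UMIs), as against 40.2% of the other WT cells.

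WT thymus held the highest level of 9 of the 10 genes, and Fos was the exception. Egr2, a zinc finger factor that restrains activated T cells, was at 18.3 CPM in WT, 1.64 in the preleukemic library, 0.438 for T-ALL#1 and 0.497 for T-ALL#2. The preleukemic value was 11.2-fold under WT, and the intervals of the leukemias (0.298 to 0.622 and 0.294 to 0.785) overlapped each other and lay under the preleukemic one (1.27 to 2.08). Egr3, its close relative, followed the same order at 9.36, 0.979, 0.283 and 0.331 CPM, with the leukemias again indistinguishable. Nr4a3, which acts beside Nr4a1 in strongly signalled cells, was at 14.3 CPM in WT, 1.03 in the preleukemic library, 0.509 for T-ALL#1 and 0.524 for T-ALL#2. The T-ALL#2 interval (0.316 to 0.819) reached the preleukemic one (0.741 to 1.39), so these 2 were not distinguishable, and neither were the 2 leukemias.

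Egr1 and Nr4a1, read at higher levels, were also lower outside WT, but by less. Egr1 was at 89.6 CPM in WT, 29.6 in T-ALL#2, 23.7 in T-ALL#1 and 17.1 in the preleukemic library, and the 4 intervals were separate. Nr4a1, the orphan receptor whose reporter mice mark TCR signalling, was at 61.2 CPM in WT, 16 in preleukemic cells, 14.2 for T-ALL#1 and 9.16 for T-ALL#2. The preleukemic and T-ALL#1 intervals (14.8 to 17.2 and 13.3 to 15.1) overlapped. The step from WT to preleukemic was 5.25-fold for Egr1 and 3.83-fold for Nr4a1, smaller than for Egr2 (11.2-fold) and Nr4a3 (13.9-fold).

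Among the surface proteins, the 2 leukemias parted. Cd69 was at 103 CPM in WT, 48.5 in the preleukemic library, 19.6 for T-ALL#2 and 10.2 for T-ALL#1, each separate from the next. Cd5 was at 218 CPM in WT, 61.7 in T-ALL#1, 24.6 in the preleukemic library and 12.9 in T-ALL#2, so that T-ALL#1 lay 2.51-fold over the preleukemic level and T-ALL#2 fell short of it (log2 ratio −0.94, 95% interval −1.10 to −0.78). Itm2a was at 320.4 CPM in WT, 121 in T-ALL#2, 64.8 in T-ALL#1 and 49.5 in the preleukemic library. The 2 leukemias thus lay in opposite order for Cd5 and for Itm2a. Itm2a lies on the X chromosome, and the sex of the 2 leukemias cannot be told apart from their other differences.

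Fos and Junb did not follow the others. Fos was at 17.3 CPM in WT, 20.1 in the preleukemic library, 94.1 for T-ALL#1 and 45.4 for T-ALL#2. The leukemias were 4.68-fold and 2.26-fold over the preleukemic library, while the preleukemic and WT intervals (18.7 to 21.5 and 15.7 to 19) overlapped. Junb stayed within a narrow band, at 119 CPM in WT, 91.5 in T-ALL#2, 88.0 in T-ALL#1 and 80.1 in the preleukemic library, and the 2 leukemias could not be distinguished. Fosb, the closest relative of Fos, was read at 2.83 CPM in WT, 10.5 in the preleukemic library, 84.8 for T-ALL#1 and 59.6 for T-ALL#2.

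**Figure D1:**
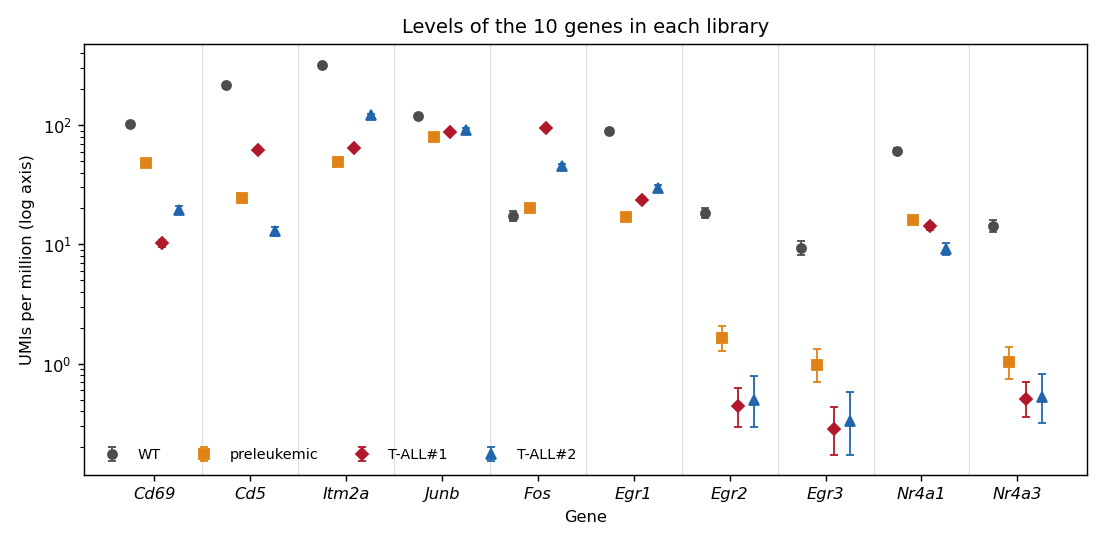
Level of each of the 10 genes in the 4 libraries, in CPM on a log axis, with exact Poisson 95% intervals (often smaller than the symbol). WT (grey) is highest for 9 genes, and Fos runs the other way, from 17.3 in WT to 94.1 in T-ALL#1.

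Counted past a 2-fold limit, with at least 10 CPM in either library, 7 of the 9 genes that reached that level were lower in preleukemic than in WT cells (Nr4a3, Egr2, Cd5, Itm2a, Egr1, Nr4a1 and Cd69) and 0 were higher, beside 4.88% of 8417 genes lower and 4.46% higher. Egr3 was under 10 CPM in both. Egr2 and Nr4a3 reached 10 CPM in WT and in no other library, so they could not be counted as higher, here or in the leukemias. In both leukemias over WT, Fos was higher and the same 7 genes were lower, where 2.82% and 12.2% of 8197 genes were. From preleukemic to both leukemias the list was split, with Fos higher and Cd69 lower of 7 genes that reached the level, where 2.28% and 10.9% of 8173 genes were. Scaling by TMM factors raised the leukemias over the preleukemic library by 0.26 and 0.50 on the log2 scale for all genes, and Cd69 in T-ALL#2 then no longer passed (log2 ratio −0.81). When each cell had the same weight, Fos in T-ALL#2 over preleukemic was at a log2 ratio of 0.91, short of 2-fold. In bulk sums of this kind, fewer cells with a transcript and less of it per cell cannot be told apart.

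Other genes of the pathway were counted by lists. Of 24 genes of the TCR response and its feedback, 19 reached 10 CPM, of which 11 were lower and 1 higher (Ikzf2, the factor Helios) in preleukemic than in WT cells. Id3, a target of EGR factors that inhibits E proteins, went from 252 to 19.1 CPM, the costimulatory receptor Tnfrsf4 from 37.3 to 2.91, its relative Tnfrsf9 from 16.4 to 1.40 and the ERK phosphatase Dusp6 from 30.8 to 6.27. In the leukemias Id3 was at 75.5 and 144 CPM, above the preleukemic value, whereas Tnfrsf9 was at 0.155 and 0.331. Of 22 TCR signal transducers, all of which reached 10 CPM, 1 was lower in the preleukemic library (Malt1) and 0 were higher. Of 14 genes of positive selection and maturation, 7 were lower, led by Zbtb7b, the CD4 lineage factor, which went from 29.9 to 0.685 CPM. Of 17 immediate early relatives, 10 reached 10 CPM and 1, Fosb, was higher in the preleukemic library, while 2 were lower, Ier5 and Nab2, a corepressor of EGR factors, which went from 71.8 to 7.76 CPM. Of the same genes that reached the level, both leukemias were lower than WT for 11 of 19 TCR response genes, 7 of 22 transducers, 10 of 14 positive selection genes and 3 of 10 relatives, and higher for 1, Fosb.

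A list of 18 genes that respond to dissociation, which holds Fosb but was made without Fos and Junb, summed to 7722 CPM in WT, 6319 in the preleukemic library, 4954 for T-ALL#1 and 5104 for T-ALL#2, and none of its genes was at 0 but Atf3 in T-ALL#1. Of its 16 genes that reached 10 CPM, 1 (Fosb) was past 2-fold higher in both leukemias than in WT and 2 were lower (Dnajb1 and Hspa8). Hspa8, the highest gene of the list, was at 3328, 2594, 1605 and 1449 CPM in the same order of libraries, so it made up much of each sum. Markers of gamma-delta, NK and NKT cells summed to 343, 1480, 49.5 and 153 CPM, with Trdc at 1149 CPM in the preleukemic library. Myeloid markers summed to 262 CPM in WT, led by S100a9, and to 7.14 to 11.1 CPM elsewhere, and erythroid markers to 90.5 and at most 0.343 CPM. The part of these lists in the levels was not tested.

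Shares of cells with a UMI rise with depth, so cells were thinned to 2000 UMIs each, which left 3229 WT, 5226 preleukemic, 5679 T-ALL#1 and 1975 T-ALL#2 cells (991, 350, 94 and 0 shallower cells left out). A Fos UMI was then read in 3.56% of cells in WT (interval 2.95 to 4.26), 3.94% in preleukemic, 21.2% for T-ALL#1 and 8.66% for T-ALL#2, as against 6.61, 9.38, 49.5 and 37.7% before thinning. Junb was read in 20, 15, 17 and 19.9%, and Nr4a1 in 6.07, 2.77, 2.66 and 1.92%. For Itm2a the thinned shares were 24.0, 8.30, 8.52 and 19.4%, so WT and T-ALL#2 were nearer in share than in level. In T-ALL#2, where barcodes below the cell limit were deposited, Fos made up 56.2 CPM, Junb 134 CPM, Egr1 52.9 CPM and Nr4a1 9.92 CPM of the UMIs outside cells, at or above the level inside. Free RNA cannot be set apart from the T-ALL#2 shares of these 4 genes, nor from the counts of T-ALL#2 cells with several factors or with Nr4a1 below.

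The 7 transcription factor genes were then counted together in single cells. At 2000 UMIs, at least 2 of the 7 factors were read in 9.29% of cells in WT (8.31 to 10.3), 2.83% in preleukemic (2.40 to 3.32), 7.13% in T-ALL#1 (6.48 to 7.83) and 5.16% in T-ALL#2 (4.23 to 6.23). At least 3 were read in 4.09% of WT cells and in 0.517, 0.634 and 0.304% of the others, whose intervals overlapped. The T-ALL#1 share of cells with at least 1 factor (36.3%) was above that of WT (31.9%), so the order of the 2 libraries turned between 1 factor and 3. Fos by itself was read in 21.2% of T-ALL#1 and 3.56% of WT cells. Of the thinned cells with at least 2 factors, 307 of 405 in T-ALL#1 held both Fos and Junb. The same was true of 30 of 300 in WT, 68 of 148 in preleukemic and 50 of 102 in T-ALL#2. Without thinning, at least 2 factors were read in 15.6, 10.5, 39.1 and 48.7% of cells, with the 2 deepest libraries highest.

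**Figure D2:**
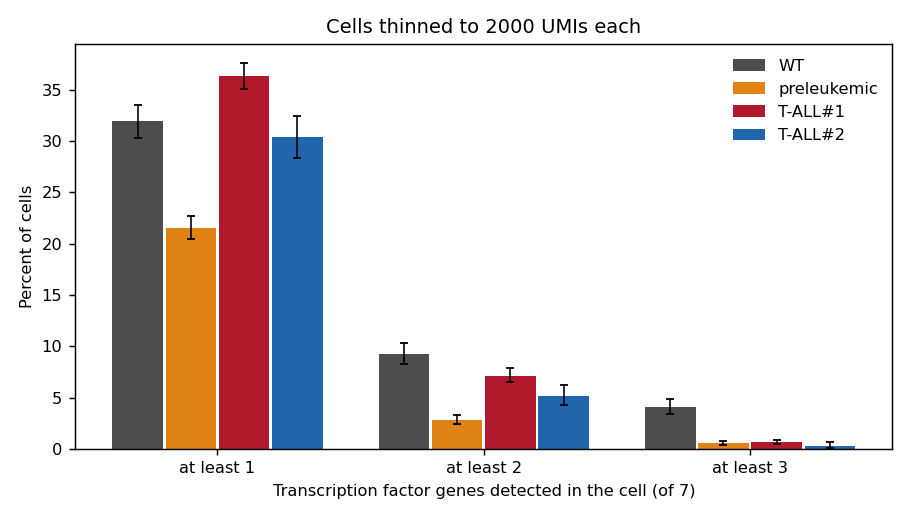
Percent of cells, thinned to 2000 UMIs, with a UMI of at least 1, 2 or 3 of the 7 transcription factor genes (Egr1, Egr2, Egr3, Nr4a1, Nr4a3, Fos, Junb). Bars start at 0 and error bars are exact binomial 95% intervals. T-ALL#1 is highest for at least 1 factor (36.3%) and WT is highest for at least 3 (4.09%). Of the cells with at least 2 factors, 307 of 405 in T-ALL#1 and 30 of 300 in WT held both Fos and Junb.

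Pairs of factors that the product of their shares would put in at least 5 cells were all found in more cells than that product. The median ratio of found to product was 2.42 over 12 pairs in WT, 2.19 over 5 in preleukemic cells, 1.32 over 5 for T-ALL#1 and 1.42 over 4 for T-ALL#2. The 5 pairs were the same in the preleukemic library and T-ALL#1. WT and T-ALL#2 had other sets of pairs, so their medians cannot be ranked against these. Egr1 and Egr2 were found together in 81 WT cells where the product gave 12.7, the largest ratio among those 12 WT pairs, and 67.5% of the 120 WT cells with Egr2 also had Egr1. Egr1 and Nr4a1 met in 84 WT cells (20.8 by the product), in 24 preleukemic cells (3.97), in 17 T-ALL#1 cells (4.71) and in 6 T-ALL#2 cells (1.94). Nr4a1 and Nr4a3 met in 41 WT cells (3.82) and in 5, 2 and 0 cells elsewhere, where the product gave under 1. In the leukemias Fos lay nearer the product with Nr4a1 than in WT and preleukemic cells, but not with every factor. Fos and Junb met in 307 T-ALL#1 cells (205 by the product), 50 T-ALL#2 cells (34.0), 30 WT cells (23.0) and 68 preleukemic cells (31.0). Fos and Egr1 met in 44 T-ALL#1 cells (37.5), 12 T-ALL#2 cells (8.74), 25 WT cells (12.2) and 16 preleukemic cells (5.64). Fos and Nr4a1 met in 37 T-ALL#1 cells where the product gave 32.0 and in 3 T-ALL#2 cells where it gave 3.29, as against 16 WT cells (6.98) and 14 preleukemic cells (5.72).

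The levels of the other genes were also compared between cells with and without an Nr4a1 UMI, over cells at full depth. Such a UMI is read more often in deep cells, and cycling cells were deeper. In T-ALL#1 median depth was 20507.5 UMIs in cycling and 4946 in low-cycling cells, and Fos was at 64.8 and 152 CPM. The part of depth and cycling state in these ratios was not tested. In WT, the 365 cells with Nr4a1 held Nr4a3 at 105 CPM and the others at 1.94, a log2 ratio of 5.76 (counting interval 5.29 to 6.27). Egr3 followed at 4.76, Egr2 at 2.82, Egr1 at 2.68, Cd69 at 2.02, Fos at 1.79, Junb at 1.60, Cd5 at 1.36 and Itm2a at 0.84. In the 362 preleukemic cells with Nr4a1 every other gene was higher too, from 0.39 for Junb to 3.71 for Nr4a3, so the scarce Egr2 and Nr4a3 UMIs were denser in cells with Nr4a1 there as well. In the 624 T-ALL#1 cells Egr3 (3.99), Nr4a3 (3.23), Egr1 (2.12) and Egr2 (2.12) were higher, Cd69 was not separable from 0 (−0.05 to 0.51) and Fos was slightly lower, at −0.16 (−0.26 to −0.06). In the 239 T-ALL#2 cells Egr1 was at 1.23 and Cd5 at 0.87, and the intervals of Cd69, Egr3 and Nr4a3 spanned 0. Fos was at 0.22 there (0.02 to 0.42). Fosb, picked here after its values were seen, was at 2.00 in WT, 1.23 in the preleukemic library, −0.17 for T-ALL#1 and −0.29 for T-ALL#2.

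**Figure D3:**
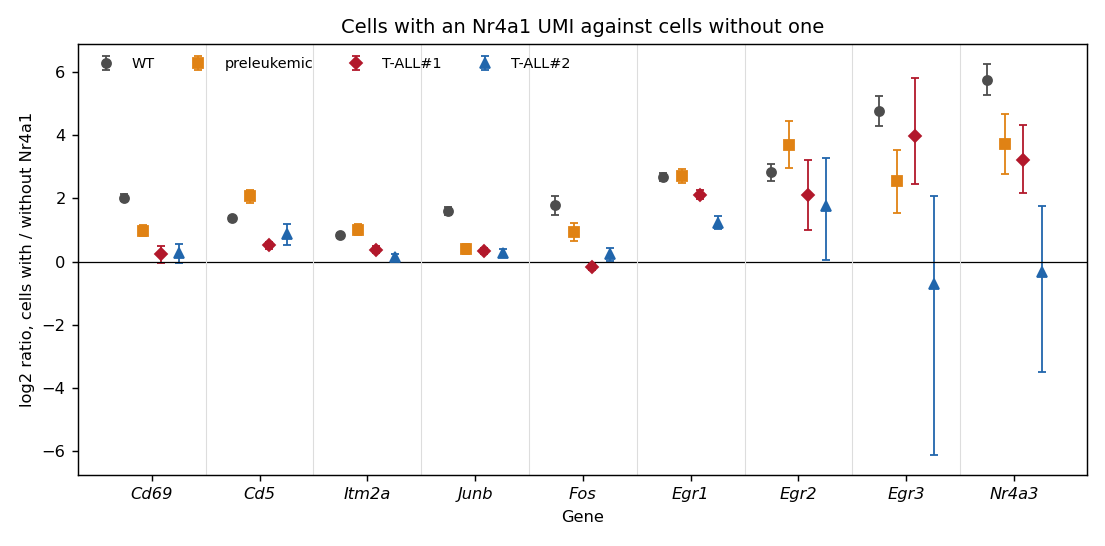
Log2 ratio of the level in cells with an Nr4a1 UMI to that in cells without one, for the other 9 genes in each library, with counting 95% intervals. Cells are at full depth, and the part of depth and cycling state was not tested. All 9 lie above 0 in WT and in the preleukemic library, while Fos lies at −0.16 in T-ALL#1 and at 0.22 in T-ALL#2.

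Read from Fos, also at full depth, the picture was different. Cells with a Fos UMI held more Fosb in every library (log2 ratios of 3.13 in WT, 2.99 in preleukemic, 1.17 for T-ALL#1 and 0.77 for T-ALL#2) and more Cd69 in every library, by 0.31, 0.86, 0.85 and 0.62. Nr4a1 was higher in Fos cells by 0.90 in WT and in the preleukemic library and by 0.35 in T-ALL#1, and the T-ALL#2 interval spanned 0 (−0.25 to 0.39). Itm2a was lower in the Fos cells of WT (−0.86, interval −0.99 to −0.73) and higher in those of both leukemias (0.32 and 0.26), and Cd5 was lower in the Fos cells of WT alone (−0.37). Dissociation genes, picked here after their values were seen, went both ways. Hspa1a was higher in Fos cells by 0.49, 1.07, 0.72 and 0.13, in the same order of libraries, and Zfp36 by 0.52, 0.64, 0.49 and 0.61. Btg2 was lower in WT (−0.44), T-ALL#1 (−0.06) and T-ALL#2 (−0.09). The part of tissue handling in the Fos cells was not tested.

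Cycling cells were told apart by UMIs of 97 S and G2/M genes, with 1 threshold for all libraries at 81.2 such UMIs per 10000. They made up 14.9% of cells in WT, 20.5% in preleukemic, 38.4% for T-ALL#1 and 39.4% for T-ALL#2. The 2 states of each library were compared over the 4 libraries with edgeR's quasi-likelihood test, with the library as a block, and p-values were adjusted over 11646 genes (Benjamini-Hochberg). Of the 10 genes, 6 fell in cycling cells and 0 rose, beside 28.1% of all genes tested that fell and 25.8% that rose. The median log2 ratio of the 10 genes was −1.06, and that of all genes tested −0.05.

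Cd69 was at 26.9 CPM in cycling and 149 in low-cycling cells of WT, at 16.4 and 71.1 in the preleukemic library, at 5.41 and 19.6 for T-ALL#1 and at 13.7 and 26.7 for T-ALL#2. It was lower in cycling cells of 4 of 4 libraries (log2 ratio −1.67 ± 0.21 SE, adjusted p = 0.00125 by edgeR). Fos was lower in 4 of 4 as well (−0.79 ± 0.12, adjusted p = 0.002), with ratios of −0.94, −1.22, −1.23 and −0.49 in WT, preleukemic, T-ALL#1 and T-ALL#2. Junb went from 159 to 52.8 CPM in WT, from 106 to 44.0 in preleukemic cells, from 123 to 70.3 for T-ALL#1 and from 118 to 69.4 for T-ALL#2, and fell by 0.92 on the log2 scale (SE 0.14, adjusted p = 0.00222 by edgeR). Cd5 (−0.87, adjusted p = 0.0194), Nr4a1 (−1.21, adjusted p = 0.0428) and Egr3 (−2.73, adjusted p = 0.00742) fell too, the last on few UMIs outside WT. Nr4a1 was at 11 CPM in cycling and 91.7 in low-cycling WT cells, but at 12.4 and 17.7 in T-ALL#1 and 7.14 and 11.6 in T-ALL#2.

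Markers of other cell types were also lower in cycling cells, with 5 of 6 tested of gamma-delta, NK and NKT cells (Klrd1 −3.37), 3 of 5 of B cells (Ebf1 −5.47), 3 of 6 of myeloid cells (Fcer1g −3.25) and 4 of 8 thymocyte markers that fell and none that rose. Without cells with at least 3 UMIs of the full B, myeloid or erythroid lists 8 of the 9 genes still tested fell (Egr2 was not tested), beside 3065 of 11264 genes. With only the defining markers of B cells in that rule 6 of the 10 did, beside 3264 of 11613. The full lists took out 18.6% of WT, 20.9% of preleukemic, 47.7% of T-ALL#1 and 20.9% of T-ALL#2 cells. In T-ALL#1 this left 741 of 2218 cycling cells, although only 17 cells of that library had defining markers. The full B list holds Ighm, Ly6d and Cd79b, which thymocytes carry too, so this setting took out thymocytes as well.

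The other 4 genes did not pass in edgeR. Egr2 (−1.73, adjusted p = 0.0683), Nr4a3 (−1.71, adjusted p = 0.0554) and Itm2a (−0.77, adjusted p = 0.12) were lower in cycling WT cells, with ratios of −4.01, −3.54 and −2.57, while the T-ALL#2 intervals of Egr2 and Nr4a3 spanned 0. Egr1 (−0.61 ± 0.44, adjusted p = 0.276) was the 1 gene with counting intervals on both sides of 0. It was at 27.5 CPM in cycling and 127 in low-cycling WT cells and at 7.83 and 23.6 in the preleukemic library, but at 25.1 and 20.7 for T-ALL#1 and 31.5 and 27.3 for T-ALL#2, so cycling cells were lower in 2 libraries and higher in 2. Without the library block 0 of the 10 genes passed in edgeR (4 at an unadjusted p under 0.05), beside 1279 of 11646 genes. By DESeq2 9 did, beside 6337 of 11646, and with all genes of at least 1 UMI tested 4 did, beside 6190 of 19324. Without the preleukemic library 4 passed, beside 4486 of 11498. Median depth moved with the state, from 3417.5 to 12617 UMIs in low-cycling cells of the 4 libraries and from 12018 to 25620 in cycling cells, and its part was not tested.

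**Figure D4:**
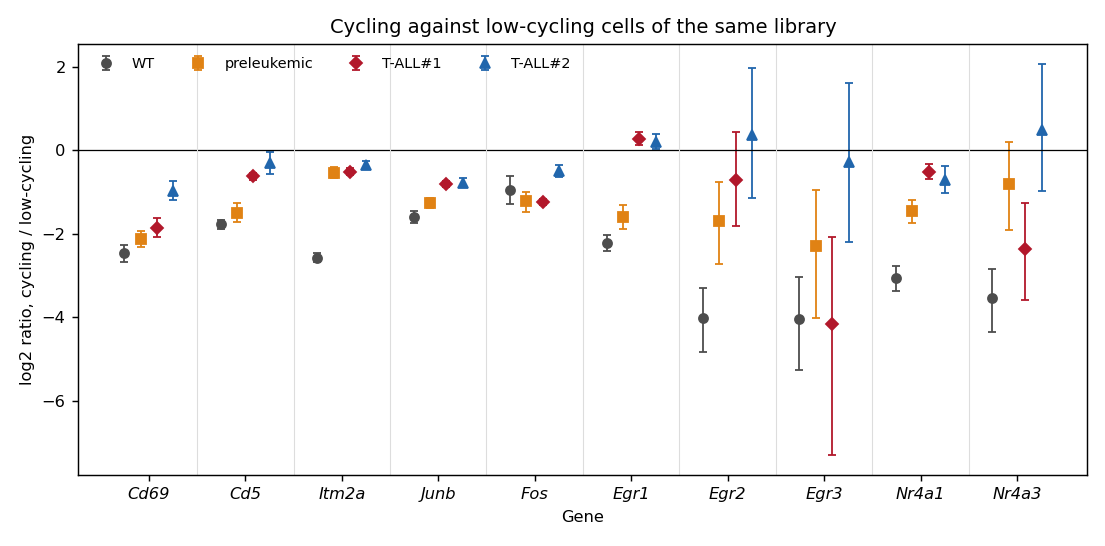
Log2 ratio of the level in cycling cells to that in low-cycling cells of the same library for the 10 genes, with counting 95% intervals. Cd69, Fos and Junb lie below 0 in all 4 libraries, and Egr1 lies at −2.21 in WT, −1.59 in the preleukemic library, 0.28 for T-ALL#1 and 0.21 for T-ALL#2.

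The distance between libraries was not the same in the 2 states. Among cycling cells 7 of the 10 genes reached 10 CPM, and Egr2, Egr3 and Nr4a3 could not be counted. Of the 7, 3 (Cd5, Egr1 and Itm2a) were past 2-fold lower in preleukemic than in WT cells, beside 3.93% of 7896 genes, and 0 were in both leukemias, beside 6.83% of 7721. Among low-cycling cells all 10 reached that level and 8 were lower in each of these comparisons, beside 5.52% of 8435 and 11.3% of 8196 genes. Of the 8, Egr2, Egr3 and Nr4a3 reached the level in WT alone, so they could not be counted as higher. None of the genes counted was past 2-fold higher in preleukemic than in WT cells in either state (3.56% of all genes in cycling and 5.63% in low-cycling cells were). Fos was higher in both leukemias than in WT in both states (2.58% and 3.51%). Over the preleukemic library both leukemias had Egr1 and Fos higher (1.81% of 7717 genes) and none lower (5.49%) among cycling cells, and Fos higher (2.95% of 8190) and Cd69 lower (10.7%) among low-cycling cells. As the genes counted differ, these counts are not a measure of change between the states. In cycling cells Nr4a1 was at 11 CPM in WT, 7.89 in the preleukemic library, 12.4 for T-ALL#1 and 7.14 for T-ALL#2, and Egr1 at 27.5, 7.83, 25.1 and 31.5. The WT cycling cells were mostly cells with both coreceptors (447 of 630, 71.0%), as were 52.3% of low-cycling WT cells. Within WT cells with both coreceptors the ratios stayed on the same side, with Nr4a1 at 8.43 CPM in cycling and 53.0 in low-cycling cells, Egr1 at 18.8 and 79.4 and Cd69 at 20.9 and 97.4.

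Low-cycling cells were then split by the transcripts of the coreceptors, Cd4 and Cd8a or Cd8b1, which mark steps of thymocyte development, into cells with neither, with Cd8 alone, with both and with Cd4 alone. WT cells fell into these gates as 306, 765, 1878 and 641, preleukemic cells as 2798, 1476, 136 and 22, T-ALL#1 cells as 211, 1362, 1924 and 58, and T-ALL#2 cells as 158, 762, 241 and 35. A gate is a call on detected UMIs, so a cell that missed a coreceptor UMI lies in a lower gate. Free RNA can place a cell in a higher gate. In T-ALL#2, barcodes of at most 100 UMIs held Cd4 at 10.5, Cd8a at 89.3 and Cd8b1 at 89.8 CPM. T-ALL#2 cells held 13.8, 117 and 113 CPM, so free RNA cannot be set apart from the T-ALL#2 gates. Median depth ran from 2634 UMIs (WT, both) to 15718 (T-ALL#2, neither), and in each library but the preleukemic one cells with both were the shallowest.

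Within the gate of both coreceptors, WT was highest for all genes but Fos, Junb and Egr3, and other places in the order of libraries changed. Nr4a1 was at 53.0 CPM in WT, 26.7 in the preleukemic library (21 UMIs), 16.2 for T-ALL#1 and 26.4 for T-ALL#2, so T-ALL#2, lowest over all cells, was above T-ALL#1. Egr1 was at 79.4, 33.1, 17.8 and 27.6 CPM and Itm2a at 281, 62.3, 40.3 and 126 CPM, in the same order of libraries, with the preleukemic library no longer lowest for either. Egr3 was at 3.96 CPM in WT and 5.09 in the preleukemic library (4 UMIs), with intervals that overlapped. Egr2 was at 18.5 CPM in WT, 3.81 in the preleukemic library (3 UMIs) and 0.654 in T-ALL#1, and 0 UMIs were read in T-ALL#2, where 3 UMIs would give 1.20 CPM and the exact Poisson upper bound is 1.48 CPM. Fos was at 16.7 CPM in WT, 15.3 in the preleukemic library, 166 for T-ALL#1 and 64.4 for T-ALL#2, so its higher level in the leukemias was there within 1 gate and 1 cycling state. Junb was at 113, 109 and 109 CPM in WT, preleukemic and T-ALL#1 and at 160.4 in T-ALL#2, and Cd5 was at 189, 26.7, 94.4 and 21.6.

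In WT, cells with Cd4 alone held more of 9 of the 10 genes than cells with both. Cd5 was at 449 CPM there and 189 in cells with both, Itm2a at 883 and 281, Nr4a1 at 134 and 53.0, Egr1 at 182 and 79.4, Cd69 at 208 and 97.4 and Nr4a3 at 34.6 and 11.9, while Fos was at 13.7 and 16.7 with intervals that overlapped. Over the 4 libraries 1 of the 10 genes, Cd69, rose in edgeR (1.12 ± 0.24 on the log2 scale, adjusted p = 0.00706), beside 8.37% of 10428 genes that rose and 7.2% that fell. Cd69 was higher in cells with Cd4 alone in 4 of 4 libraries, although the counting intervals of both leukemias spanned 0. Itm2a was higher in 4 of 4 as well, by 1.65 in WT, 2.37 in preleukemic, 2.22 for T-ALL#1 and 0.39 for T-ALL#2, and missed the threshold (1.77 ± 0.54, adjusted p = 0.0551). Cd5, higher in WT by 1.25 and in the preleukemic library by 2.57, was lower in T-ALL#1 (−0.78, interval −1.35 to −0.27), and its T-ALL#2 interval spanned 0. The 22 preleukemic cells with Cd4 alone held Cd5 at 158 CPM, Itm2a at 322 and Egr2 at 46.9 (8 UMIs in 2 cells, interval 20.2 to 92.3), where WT cells of that gate held Egr2 at 39.0. Without WT 0 of the 7 genes still tested passed, beside 247 of 10056 genes. Without the preleukemic library 3 of the 10 did, beside 1671 of 10392, and with the gate read on thinned cells 3 did, beside 896 of 10740.

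Cells with neither coreceptor gave 2 of the 10 genes higher than cells with both, Egr3 (2.66 ± 0.81, adjusted p = 0.0397) and Cd69 (0.95 ± 0.20, adjusted p = 0.00737 by edgeR), beside 8.75% of 10428 genes that rose and 5.69% that fell. Egr3 rested on few UMIs, with 38 in WT cells with neither and 24 in WT cells with both, 6 and 1 in T-ALL#1, 3 and 1 in T-ALL#2 and 27 and 4 in the preleukemic library, where its level was the lower one. Cd69 was at 199 and 97.4 CPM in WT, 75.6 and 72.5 in preleukemic cells, 39.5 and 13.7 for T-ALL#1 and 37.0 and 23.6 for T-ALL#2, and the preleukemic difference was within counting error. All 10 genes were higher in WT cells with neither coreceptor, by 0.95 to 2.54, whereas in the preleukemic library Fos alone was beyond counting error (1.04, interval 0.22 to 2.00). Cd5 was lower in both leukemias (−0.58 and −1.30) and higher in WT (1.09). In the same contrast 5 of 7 markers of gamma-delta, NK and NKT cells rose, among them Zbtb16 (4.62) and Nkg7 (3.61), as did 2 of 4 myeloid markers, Lyz2 (6.21) and Fcer1g (5.56), and 5 of 17 dissociation genes (2 fell), and their part in the 2 calls was not tested. Without cells with at least 3 UMIs of the full B, myeloid or erythroid lists 1 of the 10 genes passed, beside 1333 of 10099 genes. With only the defining B cell markers in that rule 2 did, beside 1472 of 10354. Without T-ALL#1 0 did (527 of 10485 genes) and without WT 0 did (602 of 10056). Without T-ALL#2 1 did (794 of 10773) and without the preleukemic library 4 did (2035 of 10392).

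**Figure D5:**
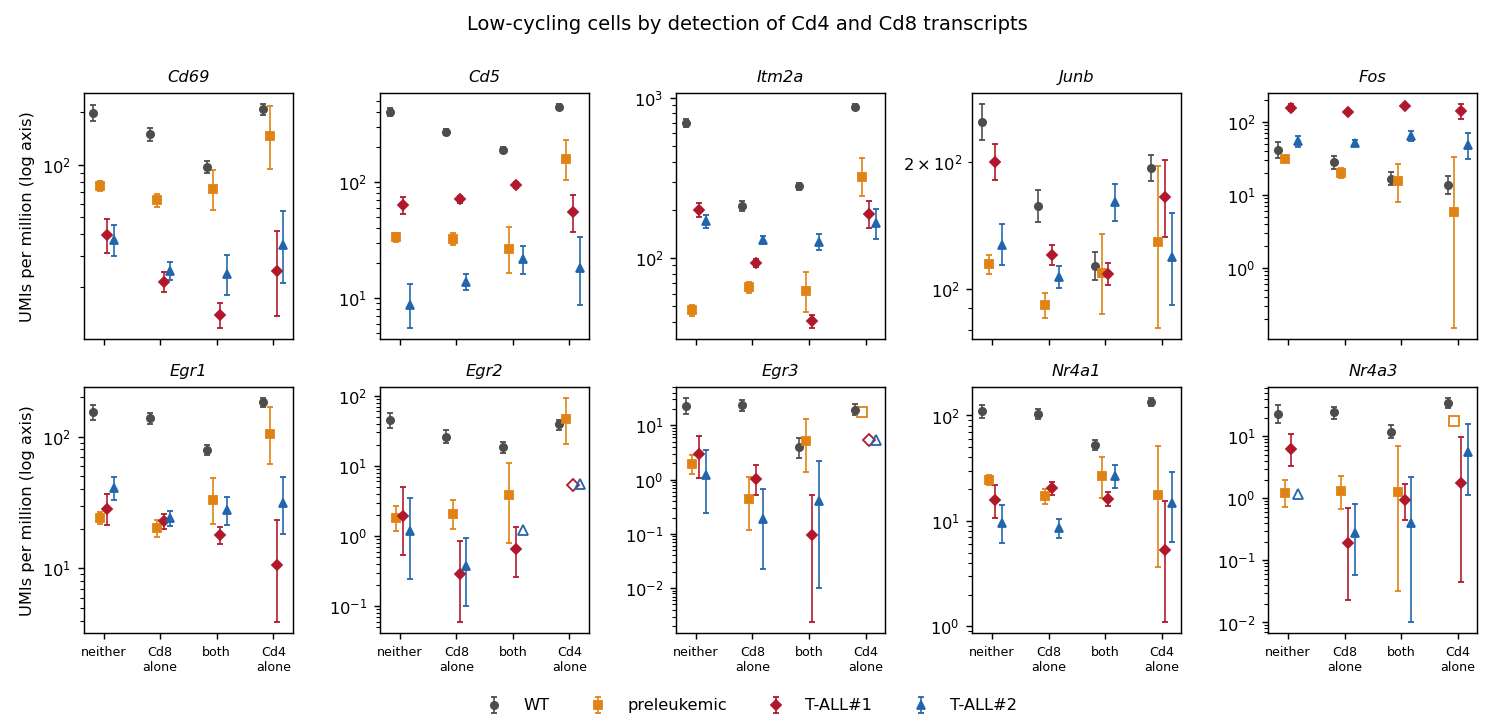
Level of each gene in low-cycling cells by the coreceptor transcripts detected, in CPM on a log axis, for the 4 libraries, with exact Poisson 95% intervals. Open symbols mark sums with no UMI, drawn at the level that 3 UMIs would give. Cells with both coreceptors are lowest in WT for 8 of the 10 genes, and Fos in T-ALL#1 (137 to 166) lies above the other libraries in all 4 gates.

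Other lists moved in these contrasts too. In cycling cells 15 of 23 TCR response genes fell and 0 rose, led by Cd83 (−4.49), Rgs1 (−3.58), Tagap (−2.66) and Cish (−1.61), as did 17 of 22 TCR signal transducers and 5 of 13 immediate early relatives, Fosb (−0.76) included. Of 14 genes of positive selection and maturation 12 fell in cycling cells, with S1pr1, the receptor that CD69 blocks, at −3.46, and of 17 tested dissociation genes 4 rose and 9 fell. Nfkbia, which is on the TCR response list and on the dissociation list, was among the genes that fell. In cells with Cd4 alone 5 of 24 TCR response genes rose and 1 fell, with Cish (2.42), Pdcd1 (1.73), Irf4 (1.39) and Nfkbid (1.15) the largest, and Nab2 (1.45) and Ier2 (0.76) of the relatives rose. Of the 14 genes of positive selection 6 rose there and 1 fell, S1pr1 (2.07), Bcl2 (2.03), Il7r (1.92) and Zbtb7b (1.71) foremost. In cells with neither coreceptor Pdcd1 (2.21), Rgs1 (3.25) and Nfatc1 (0.88) rose and Nfkbia (−0.58) fell.

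Over the 16 sums of library and gate, with each library's mean taken off, the mean of the 10 genes was followed most closely by Hspa5 (Pearson r = 0.92), an endoplasmic reticulum chaperone, among 5826 genes compared. Sept7, Tmem173, Thumpd3, Tmem219, Asnsd1, Arid5b and Mettl1 came next, at r = 0.89 to 0.86. Of the genes themselves Cd69 followed their mean best (0.88), then Junb (0.84) and Egr1 (0.80), and Nr4a1 (0.55) and Fos (−0.04) least. Each of the 10 is part of that mean, which raises its r, so these values cannot be set against those of the other genes. The 16 sums share 4 libraries and differ in depth, and these values are descriptions with no test.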

How the data were processed

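Viable singlet thymus cells of 4 mice were sequenced as 1 droplet 3′ library a mouse. The deposited values are UMI counts, which the authors made with Cell Ranger on mm10. The file headers give Cell Ranger 3.0.2 for WT, preleukemic and T-ALL#1 and Cell Ranger 4 for T-ALL#2, whose deposit held all 1791965 barcodes. The sources name more than 1 kit version and not which library had which, so kit and library cannot be told apart. Cells with over 500 genes and under 10% mitochondrial UMIs were kept, in T-ALL#2 among 2700 barcodes of at least 3416 UMIs, a limit set at 10% of the 99th UMI percentile of its top 10000 barcodes. Doublets were not called beyond the singlet sort. A fold was counted past 2-fold with at least 10 CPM in either library. Cycling and coreceptor sums of at least 20 cells were tested with edgeR 4.0.16 (quasi-likelihood, TMM, filterByExpr, library block, Benjamini-Hochberg over all genes, adjusted p under 0.05), after the scripts were tested on simulated data. The pairing of states comes from the shared animal (r of deviations 0.804 to 0.892 over 7743 genes). With 1 animal a group for WT and preleukemic, p-values measure only how alike the 4 libraries' within-library differences were. Shares were taken after thinning to 2000 UMIs, with exact binomial intervals. The 10 genes and all lists were chosen with earlier results of these data known. All 10 genes are named, list genes by the largest past-threshold change (some of these are not reported here), and DESeq2 1.42.0 was an alternative. Motif letters were searched in RefSeq promoters, and positions were read against GENCODE M21 exons.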

Additional observations from a re-analysis of the deposited data

Results flagged for a closer look

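Egr1 differed in the direction of its change with the cell cycle. Its log2 ratio of cycling to low-cycling cells was 0.28 for T-ALL#1 and 0.21 for T-ALL#2, above 0 by their counting intervals, and −2.21 in WT and −1.59 in the preleukemic library. The difference between the groups was not tested. Free RNA, with Egr1 at 52.9 CPM outside T-ALL#2 cells, cannot be set apart from the T-ALL#2 ratio.

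Cd5 was lower in cells with neither coreceptor than in cells with both in the leukemias (log2 ratios of −0.58 for T-ALL#1 and −1.30 for T-ALL#2) and higher in WT (1.09). This difference was not tested either.

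In T-ALL#2, 1187985 barcodes of at most 100 UMIs, used in no comparison, held 1814932 UMIs. Scaled to their own total, Cd69 stood at 12.7 CPM, Cd5 at 11, Egr1 at 52.9, Nr4a1 at 9.92, Fos at 56.2, Junb at 134 and Itm2a at 70.5. Egr1 and Junb were above their level inside T-ALL#2 cells (29.6 and 91.5 CPM), Itm2a was under it (121 CPM), and Egr2 and Egr3 had no UMI there, where 3 UMIs would give 1.65 CPM and the exact Poisson upper bound is 2.03 CPM each.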

How the results depend on the processing

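Depth limits Egr2, Egr3 and Nr4a3 most, which rest on 12 to 67 UMIs in each transgenic library. Settings named cycling cells alone were added after the data were seen, as was leaving out cells by defining markers of other types, and the cause of the changes below was not tested. Of the counts of genes past 2-fold, 47 kept within 1.5 times their value and 7 did not. In cycling cells alone, where 7 of the 10 genes reached 10 CPM, the preleukemic library had 3 lower than WT (7 in all cells), both leukemias 0 lower than WT, and over the preleukemic library they had 2 higher and 0 lower. Over the preleukemic library, TMM factors left 0 lower in both leukemias, and 0 were higher with a mean over cells or without cells of other types by the full marker lists. In cycling cells alone 5 log2 ratios over WT turned positive, Egr1 in T-ALL#2 (0.20), Nr4a1 in T-ALL#1 (0.17), Itm2a in T-ALL#2 (0.45) and Junb in T-ALL#1 (0.41) and T-ALL#2 (0.39).

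The share of cells with at least 2 factors was 15.6% in WT, 10.5% in preleukemic, 39.1% for T-ALL#1 and 48.7% for T-ALL#2 with no thinning. Thinned to 1500 UMIs it was 6.87, 1.87, 4.85 and 2.89%, and without cells of other types by the full marker lists it was 11.4% in WT and 8.18% in T-ALL#1. The full lists left out 18.6% of WT and 47.7% of T-ALL#1 cells, thymocytes among them.

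Without the replicate block, which here is the library, edgeR called 1279 genes and 0 of the 10 for cycling. For neither coreceptor it called 0 genes without the block (510 at an unadjusted p under 0.05) and 0 of the 10 (0 unadjusted), and for Cd4 alone 0 genes (721 unadjusted) and 0 of the 10 (1 unadjusted). For neither coreceptor, the gate on thinned cells gave 2630 genes and 4 of the 10, and the inclusion of cycling cells 706 and 1. DESeq2 gave 1672 genes, all genes with at least 1 UMI gave 1557, and leaving out cells of other types by the full marker lists gave 1333. Each of these settings gave 1 of the 10. For Cd4 alone, the gate on thinned cells gave 896 genes and 3 of the 10, cycling cells included gave 582 and 2, and DESeq2 gave 1759 and 3.

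Leaving out 1 library at a time gave 4279 to 6423 genes and 4 to 7 of the 10 for cycling, 527 to 2035 genes and 0 to 4 of the 10 for neither coreceptor, and 247 to 1671 genes and 0 to 3 of the 10 for Cd4 alone. For neither coreceptor the calls were lost without WT or T-ALL#1 and for Cd4 alone without WT, where Egr2, Egr3 and Nr4a3 were no longer tested. Cd5 and Nr4a1, which passed no threshold between the gates, changed sign. For neither coreceptor, Cd5 went to −0.035 by DESeq2 and ranged from −0.49 (without WT) to 0.37 over the libraries left out, and Nr4a1 to −0.11 and from −0.35 (without WT) to 0.58. For Cd4 alone, Nr4a1 went to −0.082 by DESeq2 and ranged from −0.80 (without WT) to 0.79. No sign changed for the 10 genes in the contrast of cycling cells.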

Other observations

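Nr4a2, the relative of Nr4a1 and Nr4a3, is not among the 10 genes and was chosen after its values were seen. In WT it was at 21.2 CPM in cells with an Nr4a1 UMI and at 0.945 in cells without one, a log2 ratio of 4.49 (counting interval 3.74 to 5.29). The ratio was 2.05 in the preleukemic library (1.64 to 2.45) and 0.44 in T-ALL#1 (0.13 to 0.74), and the T-ALL#2 interval spanned 0 (−0.03 to 0.84).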
